A study of Dugesia japonica with 16 samples.

Results

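The 200 assembly components with the steadiest abundance were examined in 16 sequencing libraries of the flatworm *Dugesia japonica*, which can regrow a lost head. A component is the set of assembled transcripts that share an identifier up to the transcript number, and stands in for a gene. The 200 were chosen from the measured values themselves. Each library was scaled to a TPM sum of 1000000 (TPM is a length-corrected transcript abundance relative to the library total) and transcripts were summed per component. Of the 16873 components, 6886 had a mean sum of 20 TPM or more over the 16 libraries. The 200 of these with the lowest standard deviation (SD) of log2(sum + 1) were taken, and they hold 615 of the 44857 transcripts.

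Every worm went without food for 7 days at 20 °C before its head was cut off. The headless pieces were collected after 48 h in water, in 4 groups of 4 libraries: vehicle (0.1% ethanol), MCTR3, PCTR3 and RCTR3, each compound at 10 nM. The compounds are lipid mediators derived from docosahexaenoic acid that carry a cysteine-containing group, 1 each from the maresins (MCTR3), protectins (PCTR3) and resolvins (RCTR3). The labels name no strain, age, sex or number of worms per library, nor the ethanol content of the compound groups, and vehicle and MCTR3 carry library numbers 1 to 8 while PCTR3 and RCTR3 carry 9 to 16, so treatment and numbering cannot be told apart between these sides.

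A cut planarian rebuilds its head from neoblasts, the dividing stem cells of the adult body, which form a blastema at the wound while older tissue is remodelled. Transcripts that hold a constant share of the RNA through such a change are used as references against which others are measured. In polyadenylated RNA from whole pieces, a steady share says nothing of how much RNA a piece or a cell holds, and fewer cells of a type cannot be told apart from less RNA per cell. Gene names are not given beside the identifiers, so components are called by identifier, their functions are not stated, and the tissue could not be checked against markers. Read depth is unknown, since TPM does not keep it.

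The 200 components varied by a few percent from library to library. Their SD of log2(sum + 1) ran from 0.0242 to 0.0579 with a median of 0.0509, against a median of 0.146 in the other 6686 components. As a coefficient of variation (SD over mean, linear TPM) this was 1.68% to 4.21%, with a median of 3.57% against 10.3% in the others. The highest library exceeded the lowest by a factor of 1.07 to 1.20 among the 200, with a median factor of 1.14 against 1.45 in the others. These values chose the components and are a description only.

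**Figure D1:**
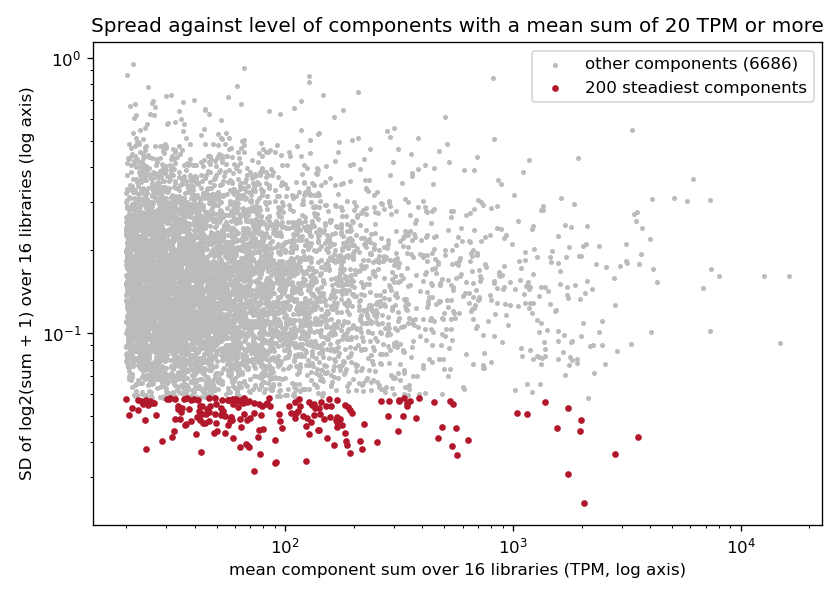
Each point is one of the 6886 components, with its mean sum in TPM on the x axis (log) and the SD of log2(sum + 1) over 16 libraries on the y axis (log); the 200 steadiest are red. The 200 lie between 20.1 and 3531 TPM on the x axis and end at an SD of 0.0579.

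The component with the lowest spread, comp124809_c0, was also among the most abundant, at 2051 ± 34.4 TPM (SD, n = 16). Its sums were 2046, 2090, 2046 and 2122 TPM in vehicle, 1988, 2056, 2033 and 2107 under MCTR3, 2018, 2045, 2067 and 2064 under PCTR3, and 2016, 2059, 2045 and 2020 under RCTR3. All 4 groups overlapped, and both extremes, 1988 TPM in MCTR3 replicate 1 and 2122 TPM in vehicle replicate 4, came from the vehicle and MCTR3 side. The next, comp136163_c1, held 1751 ± 37.2 TPM (SD, n = 16) and had both its lowest value, 1687 TPM, and its highest, 1806 TPM, within the vehicle group. comp139669_c0 (72.8 ± 1.62 TPM) and comp104758_c0 (90.4 ± 2.11 TPM; SD, n = 16) followed at a far lower level.

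A low spread did not mean that the groups overlapped. The fifth steadiest component, comp138285_c1, had sums of 86.5, 89.9, 90.2 and 90.0 TPM in vehicle and 90.6, 88.9, 87.9 and 89.3 under MCTR3. It had 93.5, 93.3, 92.7 and 92.2 TPM under PCTR3 and 92.5, 92.2, 93.1 and 93.3 under RCTR3. All 8 libraries of PCTR3 and RCTR3 lay above all 8 of vehicle and MCTR3, although the group means ran only from 89.1 ± 1.77 TPM in vehicle to 92.9 ± 0.590 TPM under PCTR3 (SD, n = 4). The tests of totals against vehicle given below did not call this component, and the rule had used these same sums.

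**Figure D2:**
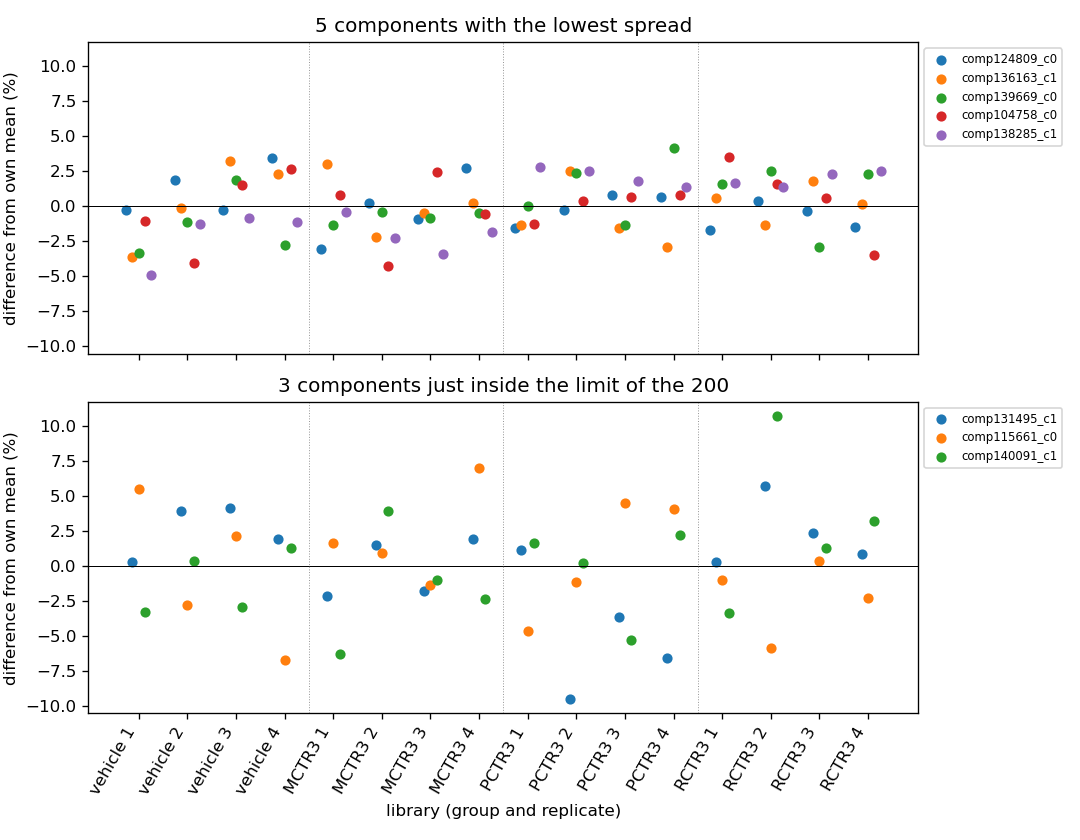
Difference of each library's component sum from that component's 16-library mean, in percent, for the 5 components with the lowest spread (top) and the 3 last of the 200 (bottom); the x axis gives the 16 libraries by group and replicate. comp138285_c1 lies below its mean of 91.0 TPM in all vehicle and MCTR3 libraries and above it in all PCTR3 and RCTR3 libraries.

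The limit of the list fell in a dense range of spreads. The last 3 components inside it, comp131495_c1, comp115661_c0 and comp140091_c1, had SDs of log2(sum + 1) of 0.05787, 0.05788 and 0.05790. The first 3 outside, comp133895_c0, comp85349_c0 and comp139361_c1, had 0.05797, 0.05802 and 0.05810. comp140091_c1 held 65.6 ± 2.71 TPM (SD, n = 16), from 61.4 in MCTR3 replicate 1 to 72.5 in RCTR3 replicate 2. comp85349_c0, just outside, held 2123 ± 87.4 TPM (SD, n = 16), and its highest value, 2376 TPM, was in the same RCTR3 library.

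The steady components covered most of the range of levels but were more frequent at higher ones. Their median mean sum was 74.5 TPM, with quartiles of 45.3 and 168 TPM, against 45.1, 29.2 and 87.4 TPM in the others. When the 6886 components were ranked by mean sum and divided into 10 equal parts, the lowest (20.0 to 23.3 TPM) held 6 of the 200, or 0.871% of its components. The 2 highest (111 TPM and above) held 42 and 37, or 6.10% and 5.37%. The median spread of all components hardly moved with level, from an SD of 0.155 in the lowest part to 0.140 in the highest.

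The most abundant of the 200 was comp86023_c0, at 3531 ± 100 TPM (SD, n = 16). Its sums were 3502, 3639, 3426 and 3598 TPM in vehicle, 3451, 3595, 3498 and 3620 under MCTR3, 3586, 3586, 3542 and 3599 under PCTR3, and 3580, 3233, 3507 and 3537 under RCTR3. RCTR3 replicate 2 was the lowest of all 16, and the groups overlapped. comp124876_c0 followed at 2804 ± 70.9 TPM (SD, n = 16). At the other end comp140435_c0 held 20.1 ± 0.841 TPM, comp145256_c0 20.6 ± 0.758 TPM and comp125070_c0 21.2 ± 0.811 TPM (SD, n = 16). Of the 100 components most abundant in vehicle, 8 were among the steady 200, each built from a single transcript in the file.

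By structure of the assembly, the steady components resembled the rest. A single transcript made up 111 of the 200 (55.5%), against 54.3% of the others, and 14 (7%) had 10 or more transcripts, against 5.82%. The mean number of transcripts was 3.08 in the steady components and 3.06 in the others. comp140462_c0, with 31 transcripts in the file of which 13 reached 1 TPM in at least 4 libraries, still summed to 221 ± 7.12 TPM (SD, n = 16). comp145261_c2 and comp142796_c0, with 13 and 11 such transcripts, summed to 78.8 ± 2.95 and 218 ± 5.70 TPM (SD, n = 16).

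The sum of the 200 components was close to constant, which the rule makes likely because it chose each of them for a steady sum. Their share of the TPM total was 4.37% ± 0.0311 in vehicle, 4.38% ± 0.0536 under MCTR3, 4.37% ± 0.0160 under PCTR3 and 4.36% ± 0.0215 under RCTR3 (SD, n = 4), and from 4.33% to 4.46% over single libraries. MCTR3 replicate 4 had the highest value of the 16 for 40 of the 200 components and the lowest for 3, and 149 of the 200 lay above their own mean there. RCTR3 replicate 2 held the highest value for 33 components and the lowest for 25, and vehicle replicate 4 the highest for 19 and the lowest for 30, so these libraries departed in both directions.

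With this scaling, differences from vehicle were small in both directions. The median difference from vehicle on the log2(sum + 1) scale was 0.012 under MCTR3, 0.0064 under PCTR3 and 0.0063 under RCTR3, against 0.045, 0.079 and 0.094 in the other components. Single components ran from -0.076 to 0.080 under MCTR3, from -0.11 to 0.082 under PCTR3 and from -0.11 to 0.11 under RCTR3. The 3 comparisons share the same vehicle libraries. In limma's moderated test across all 6886 components (adjusted p under 0.05), 1 of the 200 differed between PCTR3 and vehicle, 4 between RCTR3 and vehicle and 0 between MCTR3 and vehicle (0 also at an unadjusted p under 0.05). Of all components, 51.7% (33.9% higher, 17.7% lower), 57.8% (38.3% higher, 19.5% lower) and 0% were called in these comparisons. The F test over the 4 groups called 0 of the 200 (1 at an unadjusted p under 0.05), against 52.2% of all components. The rule drew on the same totals, so the low counts carry no information. The 4 libraries of the compound lay wholly above those of vehicle for 4 of the 200 under PCTR3 and wholly below for 7. For RCTR3 the counts were 6 and 6, and for MCTR3 2 and 1. Among the other 6686 components they were 1977 and 1010 for PCTR3, 2277 and 1126 for RCTR3, and 613 and 136 for MCTR3; the rule used these totals, and nothing is read from the difference.

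The components called in spite of the rule moved by small amounts. comp116214_c0 had 348 ± 5.0 TPM in vehicle, 340 ± 11.3 under MCTR3, 323 ± 6.79 under PCTR3 and 322 ± 6.42 under RCTR3 (SD, n = 4). comp134497_c0 was lower under RCTR3, at 58.7 ± 2.05 against 63.6 ± 1.18 TPM in vehicle. comp138812_c4 was higher under RCTR3, at 60.8 ± 1.73 against 56.2 ± 0.827 TPM, as was comp130125_c0, at 37.6 ± 1.78 against 34.7 ± 0.840 TPM (SD, n = 4). These 4 were named after their values had been seen.

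Which components were steadiest depended on how the libraries were scaled. In the values as deposited, the libraries sum to 1065 ± 43.8 kTPM (kilo-TPM) in vehicle, 1013 ± 9.78 under MCTR3, 974 ± 15.8 under PCTR3 and 953 ± 18.0 under RCTR3 (SD, n = 4). On that scale all 200 components had a lower mean under PCTR3 and under RCTR3 than in vehicle, by a median of -0.12 and -0.15 on the log2 scale, and 196 of the 200 had a lower mean under MCTR3 (median -0.059). limma then called 92 of the 200 lower under PCTR3 and 147 lower under RCTR3, and 0 higher, where 51.9% of all components were called for PCTR3 (1303 higher, 2272 lower) and 57.6% for RCTR3 (1407 higher, 2560 lower). The 200 were chosen for being level at a common sum, and the deposited scale multiplies all components of a library by the same factor, so this downward shift follows from the rule and the library sums and is no separate result. The median of all components moved as well, from 0.070 to -0.056 for PCTR3 and from 0.084 to -0.072 for RCTR3. Applied to the deposited values, the rule chose 19 of the same 200 components. After centring each library on its median component it chose 60 of them, and 128 when the 100 most abundant components were dropped from the library total. Median centring gave 62 lower calls for PCTR3 and 85 for RCTR3, and dropping the 100 most abundant components from the total gave 13 and 14, with 0 higher calls in each. The shares of all components called were 51.8% and 56.4% after median centring and 51.2% and 55.8% with the reduced total. Which scaling lies nearest to RNA content per piece was not tested.

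**Figure D3:**
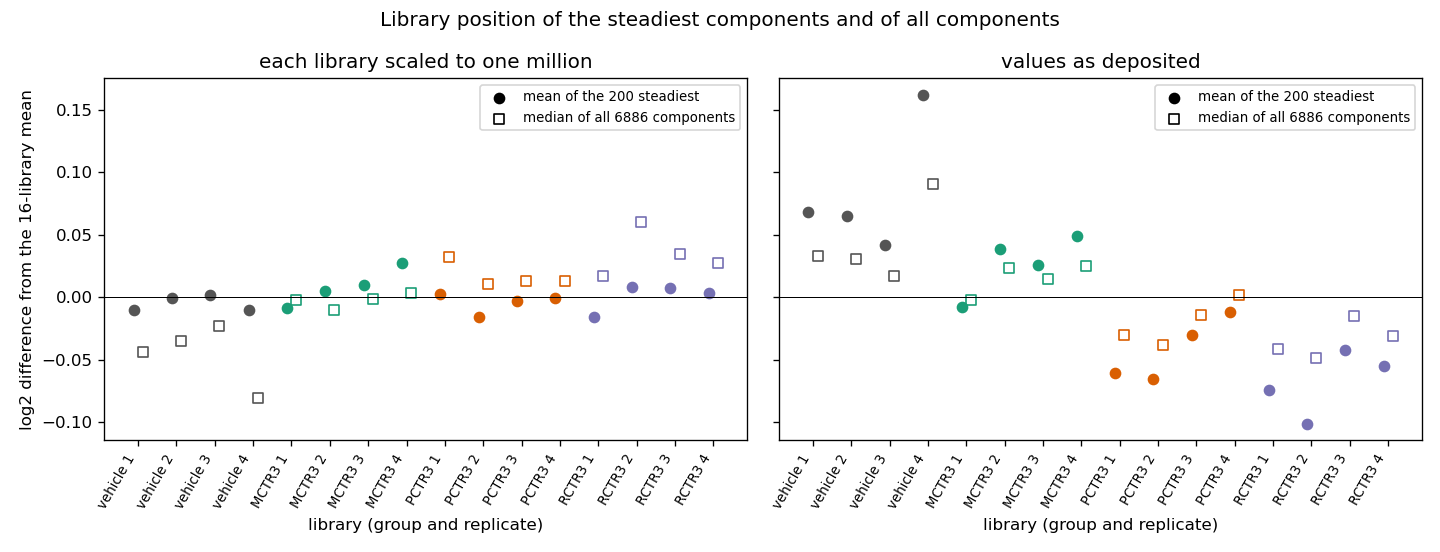
Filled circles give the mean log2 difference of the 200 components from their 16-library mean, open squares the median of all 6886 components, in each library (x axis); the left panel uses libraries scaled to a common sum and the right panel the deposited values. On the left the circles stay between -0.016 and 0.027, while on the right they run from 0.16 in vehicle replicate 4 to -0.10 in RCTR3 replicate 2.

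With the common sum, the median of all components did not stay level while the mean of the steady ones did. The mean deviation of the 200 lay at -0.0048 ± 0.0063 in vehicle and 0.00077 ± 0.011 under RCTR3 (log2, SD, n = 4), which the rule makes likely. The median deviation of all components lay at -0.046 ± 0.025 in vehicle and 0.035 ± 0.018 under RCTR3. Vehicle replicate 4 had the lowest median of all, -0.081, and the highest deposited sum, 1129 kTPM. Without that library the rule chose 139 of the same 200, the fewest for any single library left out, and 120 were chosen whichever 1 library was left out.

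**Figure D4:**
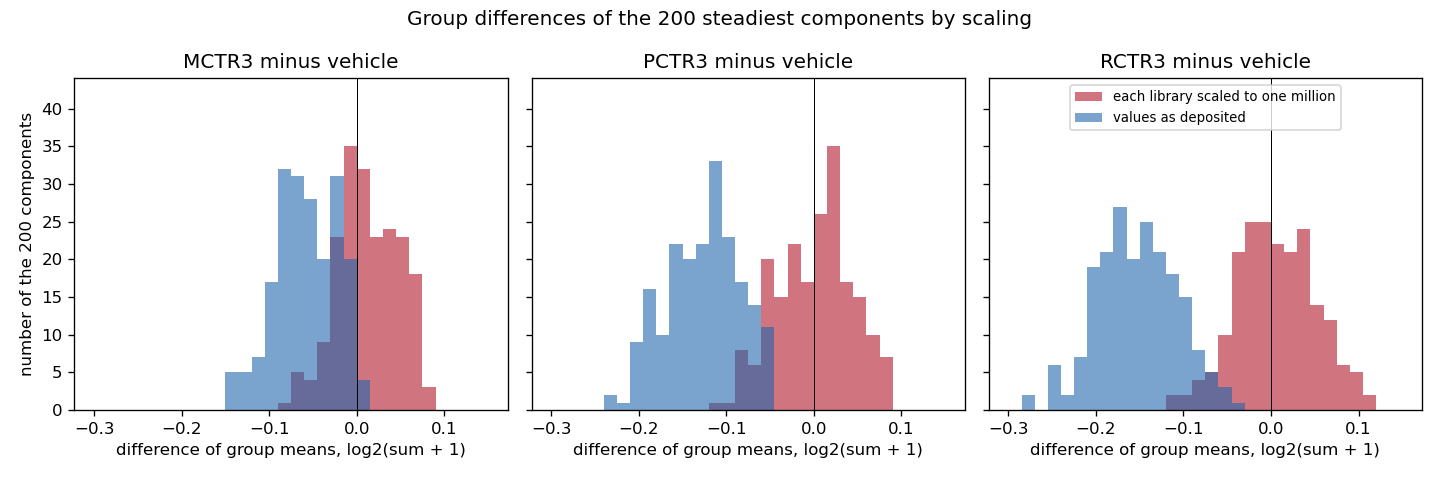
Histograms over the 200 components of the difference in mean log2(sum + 1) from vehicle (x axis), for MCTR3, PCTR3 and RCTR3, with libraries scaled to a common sum (red) and as deposited (blue); the y axis counts components. The red distributions straddle 0, and the blue ones lie wholly below 0 for PCTR3 and RCTR3.

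A steady total did not mean a steady make-up. The rule used sums and not the shares of the single transcripts within a component, so shares could still move. At a steady sum, however, a large rise of 1 transcript must be offset by a fall of its partners. Opposite moves of partners in TPM are thus favoured by the rule. The shares do not depend on the scaling between libraries apart from the offset of 0.5 TPM. For each transcript the log2 ratio of its TPM to the TPM of the other transcripts of its component was tested by limma, in 2977 components with at least 2 transcripts that reached 1 TPM in 4 or more libraries. Of the 200 steady components, 88 could be tested, with 343 transcripts. Limma's F test over the 4 groups called at least 1 transcript in 28 of the 88 (31.8%), against 31% of all 2977 components. By transcripts it called 46 of 343 (13.4%), against 14.6%. Both figures were close to the background, and nothing particular to the steady components is read from them. The 200 had a higher median mean sum than the other components (74.5 against 45.1 TPM), and level was not matched in this comparison.

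Between PCTR3 and vehicle, 31 of the 88 components had a changed share (35.2%), against 29.2% of all components tested, with 25 transcripts whose share rose and 23 whose share fell (14% of transcripts, against 13.5%). Between RCTR3 and vehicle the count was 36 (40.9%), against 37.4%, with 33 rises and 28 falls, or 17.8% of transcripts against 18.4%. In a component of 2 transcripts a rise of one is the fall of the other, so transcripts are not independent. The counts depended on single libraries, in the steady components and in all. The PCTR3 count was 20, 16, 16 and 14 without vehicle replicate 1, vehicle replicate 4, PCTR3 replicate 1 and PCTR3 replicate 2, where 24.4%, 18.9%, 19.6% and 16.3% of all components were called. The RCTR3 count was 19 and 22 without vehicle replicate 4 and RCTR3 replicate 1, where 25.2% and 27.3% of all were called.

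comp115578_c0, the 21st steadiest component, summed to 254 ± 7.14 TPM (SD, n = 16) from 2 transcripts. Its minor transcript comp115578_c0_seq1 stood at 36.3, 28.0, 40.9 and 62.1 TPM in vehicle, 36.2, 21.6, 18.1 and 21.1 under MCTR3, 11.4, 8.52, 14.8 and 13.9 under PCTR3, and 13.9, 18.3, 12.7 and 5.77 under RCTR3. All libraries of PCTR3 and RCTR3 lay below all of vehicle, while RCTR3 replicate 2 lay just above MCTR3 replicate 3, so those groups overlapped. Its share of the component fell from 16.5% ± 5.61 in vehicle to 4.75% ± 1.20 under PCTR3 and 5.09% ± 2.14 under RCTR3 (SD, n = 4), with 9.55% ± 3.28 for MCTR3. The change of the log2 ratio was -1.89 for RCTR3 (SE 0.38; limma adjusted p = 0.0041). For the larger partner, comp115578_c0_seq2, it was 1.92 for PCTR3 (SE 0.37; limma adjusted p = 0.0052), and the partner's share rose from 83.5% ± 5.61 to 95.3% ± 1.20. MCTR3 was not called against vehicle (change -0.89 for comp115578_c0_seq1, limma adjusted p = 0.79).

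In comp137792_c0 (39.8 ± 1.65 TPM; SD, n = 16) the order of the transcripts turned over. comp137792_c0_seq1 held 43.4%, 32.5%, 46.0% and 43.3% of the component in vehicle, 61.7%, 57.8%, 48.3% and 45.0% under MCTR3, 69.8%, 66.9%, 69.5% and 67.8% under PCTR3, and 78.9%, 62.2%, 60.9% and 67.6% under RCTR3. It was the smaller transcript in every vehicle library and the larger in every PCTR3 and RCTR3 library, under MCTR3 overlapping vehicle and RCTR3. Its mean rose from 16.3 ± 2.02 TPM in vehicle to 26.9 ± 1.18 under PCTR3 and 28.1 ± 2.55 under RCTR3, while comp137792_c0_seq2 went from 23.3 ± 3.19 to 12.4 ± 0.369 and 13.7 ± 3.75 TPM (SD, n = 4). With the sum chosen as steady, the opposite moves of these partners are not separate results. The change of the log2 ratio of comp137792_c0_seq1 was 1.59 for PCTR3 (SE 0.27; limma adjusted p = 0.0023) and 1.55 for RCTR3 (SE 0.27; limma adjusted p = 0.0018). Both calls held under every alternative tried.

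In comp140706_c0 and comp144344_c2 the changed share involved a rare partner. comp140706_c0_seq2 held 98.8% ± 1.21 of its component in vehicle, 96.8% ± 1.87 under MCTR3, 88.6% ± 4.79 under PCTR3 and 88.0% ± 5.91 under RCTR3 (SD, n = 4; change of the log2 ratio -2.15 for PCTR3, SE 0.42, limma adjusted p = 0.0059; -2.17 for RCTR3, limma adjusted p = 0.0037). Its partner comp140706_c0_seq1 stood at 0.279 ± 0.287 TPM in vehicle and at 2.69 ± 1.05 and 2.77 ± 1.31 TPM under PCTR3 and RCTR3. comp144344_c2_seq4 went from 99.1% ± 0.679 to 96.1% ± 1.24 under PCTR3 (SD, n = 4; change -1.43, SE 0.34; limma adjusted p = 0.014). In TPM, comp144344_c2_seq4 itself fell from 46.9 ± 0.835 in vehicle to 42.8 ± 1.73 under PCTR3. Its partner comp144344_c2_seq3 rose from 0.419 ± 0.334 to 1.71 ± 0.530 TPM, and the total fell from 47.3 ± 1.05 to 44.5 ± 1.58 TPM (SD, n = 4). A partner near 1 TPM makes these ratios depend on the offset. The change of comp140706_c0_seq2 for PCTR3 ran from -3.27 to -1.12 over the 23 alternatives that tested it, without losing its call. With a filter of 5 TPM it was not tested, since its partner reached at most 4.11 TPM.

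comp143207_c2, the tenth steadiest, summed to 192 ± 4.90 TPM (SD, n = 16) from 11 transcripts. Its transcript comp143207_c2_seq10 stood at 2.24, 3.25, 4.35 and 3.33 TPM in vehicle, 3.82, 3.78, 2.15 and 4.62 under MCTR3, 10.9, 10.1, 6.43 and 5.60 under PCTR3, and 9.28, 8.06, 5.30 and 6.45 under RCTR3. PCTR3 and RCTR3 lay above the other groups without overlap. Its share rose from 1.73% ± 0.464 to 3.74% ± 1.0 under RCTR3 (SD, n = 4; change of the log2 ratio 1.03, SE 0.30; limma adjusted p = 0.029). The call ended without vehicle replicate 1, 2 or 4 or RCTR3 replicate 1 or 2 (highest limma adjusted p = 0.085). The largest transcript of the component, comp143207_c2_seq1, held 103 ± 2.20 TPM in vehicle and 97.2 ± 6.95 TPM under RCTR3.

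**Figure D5:**
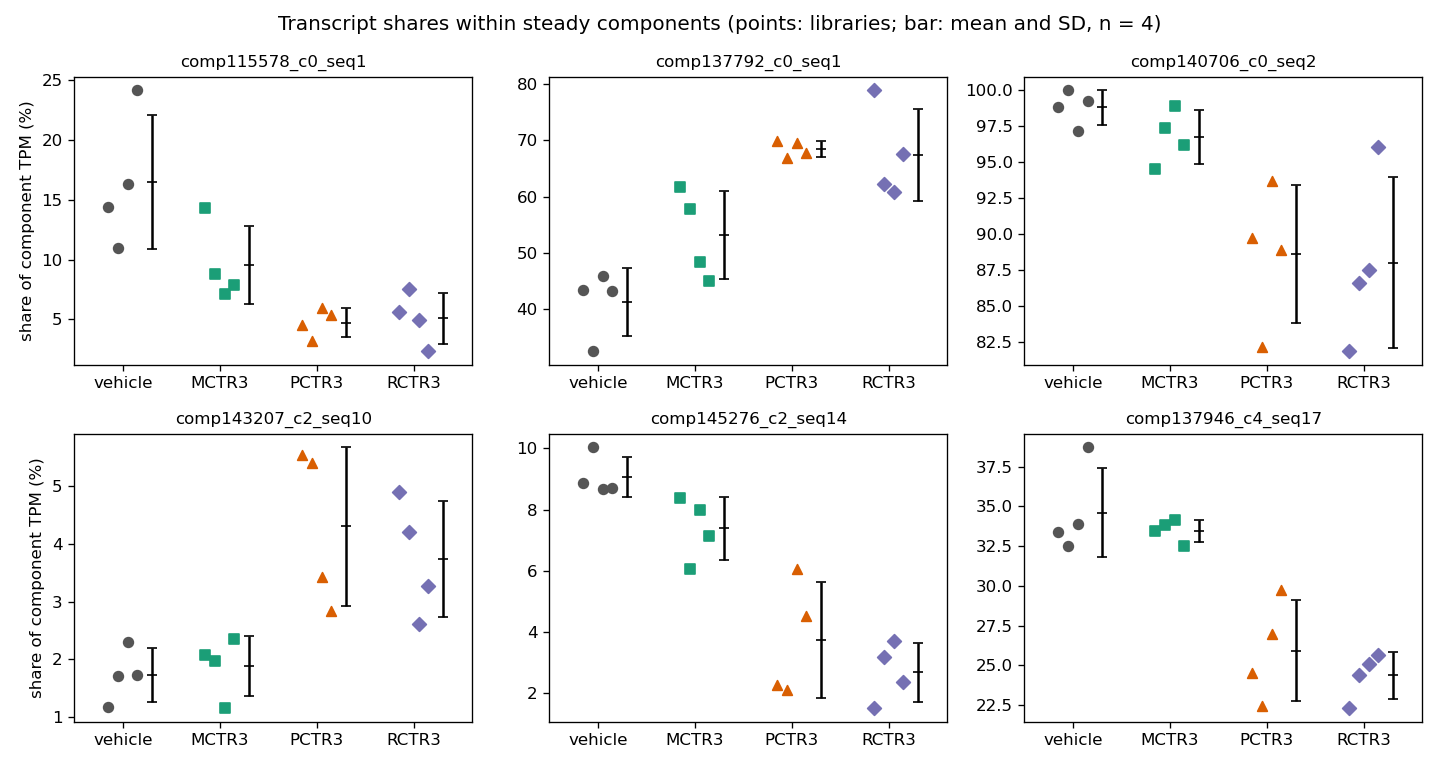
Share of the component's TPM held by 6 transcripts of steady components (y axis, percent; the axes do not start at 0) in the 4 groups (x axis); points are libraries, and the bar gives mean and SD (n = 4). In comp137792_c0_seq1 all vehicle libraries lie below 50% and all PCTR3 and RCTR3 libraries above.

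The compounds were also compared with each other, at the same dose and time, in 3 pairs. Between PCTR3 and RCTR3, 0 of the 343 transcripts had a changed share (limma adjusted p of at least 0.85), against 0.0672% of all components and 0.018% of all transcripts. At an unadjusted limma p under 0.05 there were 12 of 343, against 4.32% of all transcripts. The 95% confidence interval of the log2 ratio difference lay within 2-fold for 249 of 343 transcripts (72.6%), against 63.3% of all transcripts. Of the 146 transcripts that averaged at least 10 TPM, it did so for 136 (93.2%). Between MCTR3 and vehicle, 0 of 343 were called as well, against 0% of all components. At an unadjusted limma p under 0.05 there were 19 of 343, against 5.94% of all transcripts. For MCTR3 and vehicle the interval lay within 2-fold for 243 transcripts (70.8%), against 61.7% of all transcripts, and for 127 of the 146 (87.0%).

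MCTR3 differed from RCTR3 in the shares of 14 steady components (15.9%), against 19.4% of all components, and from PCTR3 in 4 (4.55%), against 10%. By transcripts these were 20 of 343 (5.83%), against 8.19%, and 5 of 343 (1.46%), against 3.89%. The p-values were adjusted within each pair and not over the pairs. In comp145276_c2 (125 ± 4.26 TPM; SD, n = 16), transcript comp145276_c2_seq14 stood at 11, 7.58, 10.2 and 9.44 TPM under MCTR3 and 1.93, 4.01, 4.69 and 2.92 TPM under RCTR3. Vehicle held 10.9, 12.7, 10.7 and 10.3 TPM, and PCTR3 2.77, 2.60, 7.36 and 5.28 TPM. MCTR3 overlapped vehicle and lay above PCTR3 and RCTR3. The MCTR3 and RCTR3 shares were 7.39% ± 1.03 and 2.69% ± 0.962 (SD, n = 4; difference of the log2 ratio 1.45, SE 0.32; limma adjusted p = 0.015), a call that held in every alternative. The count against RCTR3 was 9, 8, 4 and 5 without MCTR3 replicates 1 to 4 and 4 and 8 without RCTR3 replicates 1 and 4. The shares of all components in these 6 settings were 15.2%, 12.7%, 11.4%, 11.8%, 8.63% and 14.1%.

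The other transcripts named for MCTR3 and RCTR3 had smaller differences of the log2 ratio than comp145276_c2_seq14. In share points, comp116322_c0_seq1 and comp142696_c3_seq11 differed by more. comp141129_c0_seq2 held 98.3% ± 0.381 of its component under MCTR3 and 96.6% ± 0.568 under RCTR3 (SD, n = 4; limma adjusted p = 0.03). comp116322_c0_seq1 stood at 42.3, 61.6, 57.2 and 65.1 TPM under MCTR3 and 84.9, 72.8, 90.6 and 77.5 TPM under RCTR3, or 34.8% ± 5.12 and 49.7% ± 4.0 of the component (SD, n = 4; difference -0.89, SE 0.24; limma adjusted p = 0.035). comp142696_c3_seq11 held 19.0% ± 0.321 and 25.5% ± 3.51 (SD, n = 4; limma adjusted p = 0.027). In each the 2 groups did not overlap. The calls ended without some single libraries: for comp141129_c0_seq2 without MCTR3 replicate 1, 3 or 4 or RCTR3 replicate 1, 2 or 4 (highest limma adjusted p = 0.089), for comp116322_c0_seq1 without any 1 MCTR3 library or RCTR3 replicate 1, 3 or 4 (0.092), and for comp142696_c3_seq11 without MCTR3 replicate 2, 3 or 4 or RCTR3 replicate 3 or 4 (0.072).

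Against PCTR3, comp137946_c4_seq17 held 33.5% ± 0.694 of its component under MCTR3 and 25.9% ± 3.16 under PCTR3 (SD, n = 4; difference of the log2 ratio 0.52, SE 0.13; limma adjusted p = 0.039). It stood at 16.1, 16.3, 16.6 and 15.3 TPM under MCTR3 and 11.8, 11, 13.8 and 13.4 TPM under PCTR3, without overlap. comp140091_c1_seq4 was lower under MCTR3 than under PCTR3, at 24.6% ± 3.99 against 34.6% ± 3.03 (SD, n = 4; limma adjusted p = 0.028). So was comp136350_c1_seq2, at 33.1% ± 2.57 against 41.1% ± 3.91 (SD, n = 4; limma adjusted p = 0.039). In vehicle the 3 transcripts held 34.6% ± 2.80, 28.6% ± 1.75 and 33.5% ± 0.986 (SD, n = 4). Against vehicle, PCTR3 was called for comp137946_c4_seq17 and comp136350_c1_seq2 (limma adjusted p = 0.0095 and 0.022). It was not called for comp140091_c1_seq4 (limma adjusted p = 0.11), and MCTR3 was called for none of them. All 3 calls between MCTR3 and PCTR3 ended without MCTR3 replicate 1, 3 or 4 or PCTR3 replicate 1 or 2 (highest limma adjusted p = 0.13, 0.1 and 0.12). That of comp137946_c4_seq17 also ended without vehicle replicate 1 or 3 or MCTR3 replicate 2, and that of comp136350_c1_seq2 without vehicle replicate 1. Both of these calls also ended when the fit had no intensity trend. The count of 4 components was 2, 1, 2, 0, 0, 0, 14 and 8 without vehicle replicate 1, MCTR3 replicates 1, 3 and 4, PCTR3 replicates 1, 2 and 3, and RCTR3 replicate 1. The shares of all components called were 7.63%, 6.15%, 3.90%, 3.90%, 2.18%, 2.18%, 16.5% and 11.9%.

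Within components the transcripts varied far more than their sum. In the 89 steady components with 2 or more transcripts, the most variable transcript that reached 1 TPM in at least 4 libraries had an SD of log2(TPM + 1) of 0.0582 to 1.06, with a median of 0.399, against a median of 0.0512 for the sums. The variance of the sum was smaller than the summed variance of its transcripts in 86 of the 89, against 54.5% of the other 3054 components with 2 or more transcripts. A rule that selects a low variance of the sum favours this. The same transcript was the most abundant of its component in all 16 libraries in 73 of the 89 (82.0%), against 72.8% of the others. Transcripts of a component share sequence, and the split of reads among them is estimated, so opposite errors in partner transcripts would also leave the sum unmoved. Their part in these values was not tested.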

How the data were processed

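The authors deposited log2 TPM values, 1 column per library, for transcripts of *Dugesia japonica*. Per the labels, RNA was enriched for polyadenylated transcripts. Per the submitters' processing notes, kallisto and sleuth were used, with no roles stated; the sources used here give neither their versions nor the transcript set. Columns were matched to samples by the library name in the titles, and no 2 of the 120 pairs of libraries were identical. The lowest value, -34.92, was read as 0 TPM. Libraries were scaled to 1000000 TPM and summed per component.

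limma 3.58.1 in R 4.3.3 was fitted to 4 group means with an intensity trend, two-sided, and adjusted by Benjamini-Hochberg over all 6886 components (log2(sum + 1)) or all 11117 transcripts of 2977 components (log2 ratio with an offset of 0.5 TPM). Both fits were also run on simulated data, with noise drawn independently for each transcript or component. Real transcripts of a component are not independent, so that run cannot show how the share test behaves here. Earlier results of these data were known when the components, tests and named items were chosen. The labels do not say whether libraries came from separate worms, so the p-values reflect only library-to-library spread, possibly technical.

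Named components were the 5 with the lowest spread, the 3 highest and 3 lowest in level, the 3 with most transcripts tested and 3 on either side of the limit. Named transcripts were at most 2 rises and 2 falls per pair of groups: the largest called changes with a mean of 5 TPM or more and no overlap of the groups. Alternatives were other offsets, filters, scalings and measures of spread, no intensity trend, a replicate block, and each library left out.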

Additional observations from a re-analysis of the deposited data

Results flagged for a closer look

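In each group of 4 libraries, the named components, the named transcript shares and the summed level of the 200 were searched for 1 library far from the other 3. This flagged 9 of 124 groups, and chance flags about 1 group in 20. Among component sums, comp139669_c0 stood at 70.7 TPM in RCTR3 replicate 3 against 74.0 to 74.7 in the other RCTR3 libraries, and comp138285_c1 at 86.5 TPM in vehicle replicate 1 against 89.9 to 90.2. comp124876_c0 stood at 2872 TPM in MCTR3 replicate 4 against 2724 to 2739, and comp145261_c2 at 71.3 TPM in PCTR3 replicate 2 against 76.8 to 77.8. comp142796_c0 stood at 221 TPM in PCTR3 replicate 3 against 218 to 219.

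Among transcript shares, comp140091_c1_seq4 held 39.1% in PCTR3 replicate 2 against 32.6% to 33.6%, and 28.8% in RCTR3 replicate 4 against 34.3% to 35.1%. comp136350_c1_seq2 held 36.9% in MCTR3 replicate 2 against 31.3% to 32.1%. comp145276_c2_seq14 held 10.0% in vehicle replicate 2 against 8.68% to 8.88%.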

How the results depend on the processing

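Of the 200 components, the rule chose 19 again on the deposited scale, 60 after median centring, 128 with a total without the 100 most abundant components, 92 by the median absolute deviation, 105 by the pooled SD within groups and 115 without the vehicle group; without single libraries it chose 139 to 188. The counts of steady components with a changed total were 96 (any difference), 92 (PCTR3) and 147 (RCTR3) on the deposited scale, 57, 62 and 85 after median centring, and 10, 13 and 14 with the total without the 100 most abundant components; the shares of all components called were 52.6%, 51.9% and 57.6%, then 52.4%, 51.8% and 56.4%, then 52.0%, 51.2% and 55.8%. With a mean sum of 50 TPM or more, 140 of the 200 were tested. The counts were then 1 for any difference, 2 for PCTR3 and 3 for RCTR3, where 53.7%, 54.0% and 58.8% of all 3148 components were called. Without single libraries the counts with a changed total ran from 0 to 1, from 0 to 2 and from 2 to 5, and for MCTR3 stayed at 0. Of all components, 48.6% to 54.5%, 42.5% to 54.2% and 50.9% to 58.7% were called in these settings, and 0% for MCTR3. The counts with a changed share ran, without single libraries, from 18 to 28 (any difference), 14 to 33 (PCTR3 and vehicle) and 19 to 37 (RCTR3 and vehicle). They ran from 0 to 14 (MCTR3 and PCTR3) and 4 to 16 (MCTR3 and RCTR3), and stayed at 0 for MCTR3 and vehicle and for PCTR3 and RCTR3. In the same order, the percentages of all components called ran from 22.5% to 32.5%, 16.3% to 33.1%, 25.2% to 38.6%, 2.18% to 16.5% and 8.63% to 22.2%. For MCTR3 and PCTR3 the count was 7 of 88 with an offset of 2 TPM (11.7% of all components), 11 of 61 with a filter of 5 TPM (17.8%) and 7 of 89 with any transcript above 0 (8.79%). The cause was not tested. Over the named transcripts, 312 of the recomputed share changes kept their call and 44 lost it, and 0 changed sign.

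Deviations of same-numbered libraries correlated between -0.41 and 0.54 (median 0.0081, 24 pairs). Those of differently numbered libraries correlated between -0.53 and 0.62 (median -0.024, 72 pairs). Such correlations cannot decide whether libraries of the same number were prepared together. With the replicate block, the share counts were 24 (any difference), 26 (PCTR3), 35 (RCTR3) and 12 (MCTR3 and RCTR3). Of all components 28.5%, 27.9%, 36.1% and 19.1% were called there. The total count for PCTR3 was 0, where 50.2% of all components were called. Read depth is unknown, and no interval for counting error is given.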

Other observations

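The list was rebuilt from 12 libraries with 1 group left out, and the chosen components were then read in the group whose libraries were not used. In the vehicle group the 200 components chosen without it lay a median of 0.047 (log2, absolute difference of means) from their mean in the other 12 libraries, against 0.16 for the components not chosen. The medians were 0.033 against 0.088 in the MCTR3 group, 0.029 against 0.10 in the PCTR3 group and 0.033 against 0.13 in the RCTR3 group. The largest single departure was 0.23, in vehicle. These lists shared 115, 150, 145 and 136 components with the list from all 16 libraries. The groups left in can resemble the one left out. Of all component totals, 0% were called between MCTR3 and vehicle. By transcript shares, 0.0672% of all components were called between PCTR3 and RCTR3. Calls of totals between PCTR3 and RCTR3 are not given, and an absence of calls does not show that groups are alike. The choice may thus already have disfavoured components that move in the group left out, and nothing is read from these differences.

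The 200 components steadiest within 1 group of 4 libraries were mostly others. Of the vehicle list 26 were among the steady 200 (13% of either list), of the MCTR3 list 23, of the PCTR3 list 48 and of the RCTR3 list 23. Within single groups the median SD of log2(sum + 1) of the steady components was 0.043 in vehicle, 0.039 under MCTR3, 0.042 under PCTR3 and 0.050 under RCTR3, against 0.097, 0.070, 0.11 and 0.10 in the other components. These spreads are part of what the rule used.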
